A study of Mus musculus with 3 samples.

Results

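Of the 2805 Flag CUT&Tag peaks on chromosomes 1 to 19 and X of Pan02 cells carrying POH1-Flag, 761 (27.1%, Wilson 95% interval 25.5 to 28.8) overlapped by at least 1 bp a peak in exactly one of the 2 MYC lists. These 761 sites met either the MYC list of vector cells only, 324 sites, or the MYC list of POH1-Flag cells only, 437 sites. Of the remaining Flag peaks, 830 met both MYC lists and 1214 met neither. The sites were chosen by measured values, the peak calls in the 3 lists, so their number and the presence of one MYC call beside the absence of the other are descriptions and not findings.

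POH1, the product of the gene Psmd14, sits in the lid of the proteasome, where it removes ubiquitin chains from proteins about to be degraded. MYC is a short-lived transcription factor that is itself destroyed by the proteasome. It binds DNA with its partner MAX, mostly at E-box sequences in the promoters of growth genes, and it is often raised in pancreatic cancer. CUT&Tag directs a transposase to an antibody, so that DNA near the bound protein is tagged and sequenced, and a peak is a stretch where tagged fragments pile up.

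Pan02 is a mouse pancreatic cancer cell line, and the 3 libraries were Flag in cells stably expressing POH1-Flag, MYC in vector cells, and MYC in cells stably expressing POH1-Flag. Each group had 1 library. Whether the stable cells were a clone or a pool, and whether the POH1-Flag cells of the Flag and MYC libraries were the same culture, is not given in the sources used here. With 1 library per group no difference has a replicate check, and sites of one library are not replicates of a condition, so no test is given. Intervals below are 95% intervals for counting error only, as PCR copies and differences between cultures are not part of them.

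The Flag list held 2936 peaks, the vector MYC list 12175 and the POH1-Flag MYC list 22647, at nearly equal background coverage (relative depth 1.05, 1 and 1.06). The median pileup at a summit was 15, 14 and 15 reads. Of 8 ductal epithelial marker genes 1 had a MYC peak within 1 kb of an end in vector cells and 2 in POH1-Flag cells, against 1 and 2 of 6 macrophage markers and 0 and 1 of 7 fibroblast markers, and none of 6 acinar, 5 T cell or 4 endothelial markers did in either list. The MYC lists therefore do not by themselves establish the labelled cell type.

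Neither set lay at gene starts, and Flag peaks as a whole seldom did. No member overlapped any of the RefSeq promoter windows (GRCm38.p6, 250 bases before to 50 after a start). Of the 745 members on the chromosomes with such windows, 0 had a summit within 1 kb of a coding gene's start. The Wilson upper limits were 1.18% of 321 vector-list-only and 0.898% of 424 POH1-Flag-list-only sites. Of all Flag peaks 0.509% had such a summit, of those in both lists 1.59% and of those in neither 0.0842%. By either end of a protein-coding gene, 4 of 324 vector-list-only sites (1.23%, 0.481 to 3.13) and 5 of 437 POH1-Flag-list-only sites (1.14%, 0.490 to 2.65) lay within 1 kb, against 1.53% of all Flag peaks and 0.824% of those in neither MYC list. The difference between the sets was 0.0904 percentage points (Newcombe interval -1.59 to 2.10). MYC peaks found in one list only and without a Flag peak were at gene ends far more often, 130 of 1492 in the vector list (8.71%, 7.39 to 10.3) and 2846 of 11783 in the POH1-Flag list (24.2%, 23.4 to 24.9).

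Most members lay outside genes. Inside a gene and over 1 kb from its ends were 106 vector-list-only sites (32.7%, 27.8 to 38.0) and 172 POH1-Flag-list-only sites (39.4%, 34.9 to 44.0), and coding genes covered 39.6% of the span between the first and last gene of each chromosome. The vector-list-only share was lower by 6.64 percentage points, but the interval of the difference, -13.4 to 0.278, included 0. It left out 0 with a −log10 q of at least 2 in all lists (-14.6 to -0.789) and with an overlap of at least 50% of the Flag peak (-14.4 to -0.678). It included 0 with a −log10 q of at least 5 in all lists (-15.6 to 4.52) and with a Flag fold of at least 5 (-14.6 to 3.34). The same held with the MYC summit inside the Flag peak (-12.5 to 1.30) and with peaks within 500 bp counted as met (-13.2 to 0.341). It held too with the POH1-Flag MYC list shortened to the length of the vector list (-14.3 to 4.98). Flag peaks in both MYC lists (33.0%) or in neither (33.8%) had shares between those of the 2 sets. Sites outside genes were a median of 89.1 kb (61.8 to 112) from the nearest gene in the vector-list-only set and 127.5 kb (87.8 to 149) in the POH1-Flag-list-only set, with overlapping intervals.

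**Figure D1:**
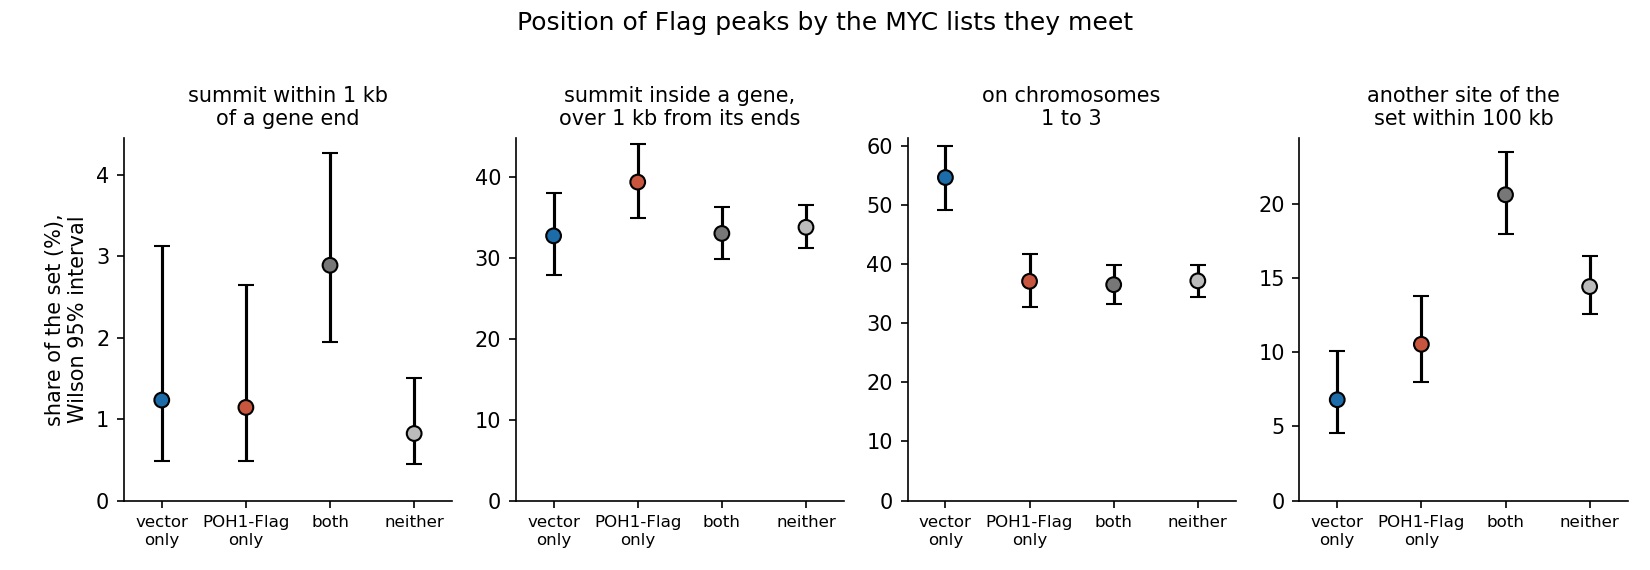
Share of Flag peaks (%, vertical axes) in 4 kinds of position, for peaks meeting the vector MYC list only (n = 324), the POH1-Flag MYC list only (n = 437), both lists (n = 830) or neither (n = 1214). Points are shares and bars are Wilson 95% intervals. The vector-list-only point stands above the other 3 for chromosomes 1 to 3 (54.6% against 37.1%, 36.5% and 37.1%), while the 2 one-list sets lie close together at gene ends.

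The sets differed in the chromosomes they came from. Chromosomes 1, 2 and 3 together held 177 of 324 vector-list-only sites (54.6%, 49.2 to 60.0) against 162 of 437 POH1-Flag-list-only sites (37.1%, 32.7 to 41.7), a difference of 17.6 percentage points (10.4 to 24.5). The POH1-Flag-list-only share was close to that of Flag peaks in both lists (36.5%, 33.3 to 39.8) or in neither (37.1%, 34.5 to 39.9). All vector MYC peaks had 23.5% and all POH1-Flag MYC peaks 22.1% on these chromosomes. This grouping of chromosomes was chosen after the values were seen.

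Chromosome 1 held 72 vector-list-only and 69 POH1-Flag-list-only sites, and chromosome 2 held 67 and 49. Chromosome 3 did not share the excess in number, with 38 and 44. In the other direction, chromosome 11 held 4 vector-list-only and 22 POH1-Flag-list-only sites, chromosome 18 held 3 and 13, and chromosome 19 held 1 and 7. The window from 160 to 170 Mb of chromosome 1 held 10 vector-list-only sites and 0 of the other set among its 23 Flag peaks. The window with most members, from 100 to 110 Mb of chromosome 2, held 9 and 5 among 30 Flag peaks.

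**Figure D2:**
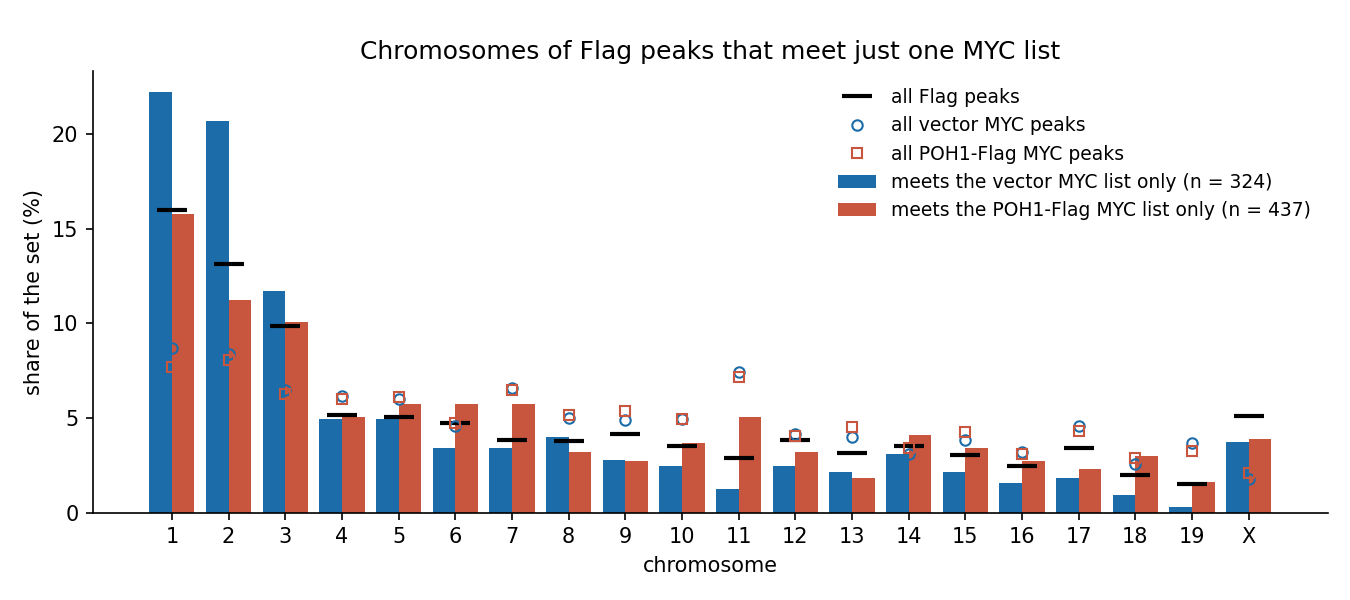
Share of each set (%, vertical axis) on each chromosome (horizontal axis). Bars give the 324 vector-list-only and 437 POH1-Flag-list-only sites, and the marks give all Flag peaks and all peaks of each MYC list. Chromosomes 1 and 2 carry taller vector-list-only bars (72 and 67 sites) and chromosome 11 a taller POH1-Flag-list-only bar (22 sites against 4).

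The chromosome difference was not seen at the strictest q threshold tried. With peaks of a −log10 q of at least 5 in all lists, 160 vector-list-only sites had 45.6% (38.1 to 53.4) on chromosomes 1 to 3 and 163 POH1-Flag-list-only sites had 44.2% (36.8 to 51.8), a difference of 1.45 points (-9.29 to 12.2), and the other Flag peaks had 33.7%. With the POH1-Flag MYC list shortened to the length of the vector list, the shares were 53.6% and 35.8%. The difference was 17.4 points (10.2 to 24.5) with a −log10 q of at least 2 in all lists and 20.1 points (10.8 to 29.1) with a Flag fold of at least 5. Among sites with a background of at most 5 times the genome-wide level the shares were 57.4% and 37.4%. Local Flag background, which includes the peaks' own reads, was a median of 2.09 times the genome-wide level at vector-list-only sites of chromosomes 1 to 3 and 1.70 times on the other chromosomes. At POH1-Flag-list-only sites it was 2.28 and 1.77 times. The part of background or of chromosome copy number in the difference was not tested.

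Counted from the MYC side, the same overlaps give a description and no separate support. Of 1821 vector MYC peaks without a POH1-Flag MYC partner, 329 met a Flag peak (18.1%, 16.4 to 19.9), and of the 12231 peaks of POH1-Flag MYC that lacked a vector partner, 448 did (3.66%, 3.34 to 4.01). Among all peaks, 9.68% of the vector list and 5.70% of the POH1-Flag list met a Flag peak. Among peaks with a partner in the other list, 8.17% and 8.19% did. Lone vector peaks that met no Flag peak had 33.7% (31.4 to 36.2) on chromosomes 1 to 3, and lone POH1-Flag peaks that met none had 22.4% (21.6 to 23.1).

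In Flag strength the medians of the sets were close, with intervals that overlapped or touched. The read pileup at the Flag summit had a median of 15 (14 to 15), a lowest value of 7 and a highest of 85 in the vector-list-only set, and a median of 14 (14 to 14) from 7 to 58 in the POH1-Flag-list-only set. Pileups of 10 to 20 reads made up 83.3% and 82.6% of the sets. Flag peaks in both lists were higher, with a median of 19 (18 to 20), and those in neither lower, with 13 (13 to 13). The authors' −log10 q had medians of 4.77 (4.47 to 5.08) and 4.81 (4.51 to 5.24), and median widths were 309 and 319 bp. A local background over 1.5 times the genome-wide level was found at 74.1% (69.0 to 78.5) and 72.1% (67.7 to 76.1) of the sites.

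The few high pileups mostly stood on high local background. Over 30 Flag reads were found at 14 vector-list-only sites, 12 of them with a background over 5 times the genome-wide level, and at 9 POH1-Flag-list-only sites, 7 of them so. Sfi1, whose product binds centrins at the centrosome, had 2 sites of each set in this class. Its vector-list-only sites had 34 Flag reads each with 24 and 37 MYC reads, and its POH1-Flag-list-only sites had 35 and 49 Flag reads with 30 and 42 MYC reads. Speer4c, of a multicopy gene family, had a vector-list-only site of 32 Flag reads on a background of 9.62. The part of reads shared with other copies was not tested.

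The MYC peaks that the members met were weak in their own lists, a measure partly fixed by the rule because a strong MYC peak is more easily called in both lists. Vector MYC pileups at the vector-list-only sites ran from 6 to 71 reads with a median of 11 (11 to 12). POH1-Flag MYC pileups at the POH1-Flag-list-only sites ran from 5 to 46 with a median of 10 (10 to 11). At Flag peaks meeting both lists each MYC library had a median of 15. The median percentile by −log10 q within the own list was 32.5 and 31.9 for the one-list sets, against 65.9 and 61.2 for the peaks met in both.

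Unscaled Flag reads were at least as many as MYC reads at 283 vector-list-only sites (87.3%) and 381 POH1-Flag-list-only sites (87.2%). Over genome-wide backgrounds, Flag was above MYC at 68.5% and 76.7% of the sites. Both pileups come from the peak calls that chose the members. The lowest pileup in a list was 7 reads for Flag, 6 for vector MYC and 5 for POH1-Flag MYC. These shares and the ratios below are therefore partly fixed by the rule. With each pileup divided by its library's genome-wide background, the median log2 ratio of Flag to MYC was 0.16 (0.12 to 0.19) in the vector-list-only set and 0.31 (0.27 to 0.37) in the POH1-Flag-list-only set. At Flag peaks in both lists it was 0.16 against vector MYC and 0.19 (0.15 to 0.25) against POH1-Flag MYC. The 2 ratios have different MYC libraries below the line, and with the authors' fold enrichments over local background they were 0.06 (0.02 to 0.11) and 0.12 (0.07 to 0.14), with overlapping intervals.

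Single sites rarely had a ratio whose interval left out 1. Above 1 were 2 of 324 vector-list-only sites (0.617%, where 1.91% of all Flag peaks meeting that list were) and 7 of 437 POH1-Flag-list-only sites (1.60%, background 3.08%). Below 1 were 4 vector-list-only sites (1.23%, background 3.21%) and 3 POH1-Flag-list-only sites (0.686%, background 4.5%). All 4 shares were under their backgrounds. Those backgrounds include the members and also the Flag peaks in both lists, which had more reads (median Flag pileup 19 against 15 and 14). More reads give narrower intervals, and the part of read number in the lower shares was not tested. The Flag and MYC summits were a median of 74 bp apart in both sets, and within 200 bp at 86.1% and 85.8% of the sites.

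**Figure D3:**
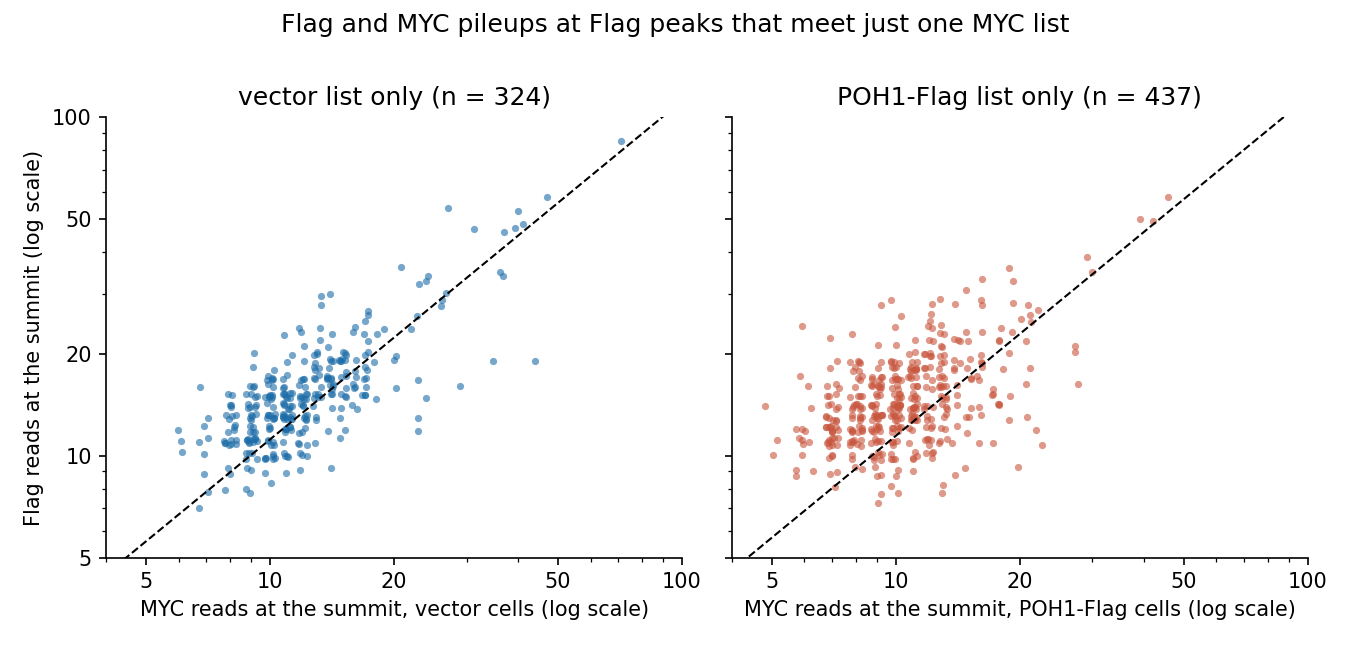
Flag reads at the summit (vertical axis, log scale) against MYC reads at the strongest MYC peak met (horizontal axis, log scale), 1 point per site, moved at random by up to 0.3 reads so that equal values show. The left panel has the 324 vector-list-only and the right the 437 POH1-Flag-list-only sites, and the dashed line marks equal multiples of the libraries' genome-wide backgrounds. Most points lie at 10 to 20 Flag reads, and 68.5% of the left and 76.7% of the right panel lie above the line.

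The vector-list-only site with the strongest Flag peak lay 28.3 kb outside Dpp10, which encodes an inactive dipeptidyl peptidase relative that serves as a potassium channel subunit (chr1:123303554-123304010, GRCm38). It had 54 Flag reads and 27 vector MYC reads, a ratio of 1.79 (1.11 to 2.95) over background and a −log10 q of 48.2, and the nearest POH1-Flag MYC peak was 429 kb away. Dpp10 itself carried 2 POH1-Flag-list-only sites inside the gene, with 19 and 17 Flag reads against 11 and 12 MYC reads. Both kinds of site thus lay around one gene, which is 1514 kb long.

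A vector-list-only site 20.7 kb from Insig1, an endoplasmic reticulum protein that restrains sterol synthesis, had 30 Flag and 13 MYC reads (chr5:28099130-28099472, ratio 2.06, 1.04 to 4.31). This and the Dpp10 site were the 2 of this set with an interval above 1. Near Kcnj5, a potassium channel gene, a site had 36 Flag and 21 MYC reads, but a POH1-Flag MYC peak began 299 bp away. Near Kif6, a kinesin gene, a site had 27 Flag and 17 MYC reads, and the POH1-Flag list had nothing closer than 189 kb.

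Inside genes the strongest vector-list-only sites were weaker by Flag −log10 q, though not always by reads. The highest value, in a predicted gene, was 14.4 with 30 Flag reads, against 17.9 at the site near Kif6. Nova1, a neuronal splicing factor, had 20 Flag and 13 MYC reads, and Ccdc186 had 17 and 10. Pkhd1, the gene of the ciliary protein fibrocystin, had 3 sites, the most of any gene in either set, with 20, 26 and 19 Flag reads against 13, 17 and 15 MYC reads. All 3 ratios had intervals that included 1. Nckap5 (17 and 15 Flag reads) and Lrp1b, an LDL receptor relative (19 and 18), had 2 each.

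At 4 vector-list-only sites the interval of the ratio lay below 1. Dpp9, a dipeptidyl peptidase, had 19 Flag and 44 MYC reads (chr17:56199858-56200145, ratio 0.39, 0.21 to 0.68), with the nearest POH1-Flag MYC peak 2.43 kb away. Fam227b had 16 and 29 reads (ratio 0.49, 0.25 to 0.94). A site 14.8 kb from Pla2r1, a phospholipase receptor gene, had 19 and 35, and one 8.10 kb from the olfactory receptor gene Olfr854 had 12 and 23. At the other end, without an interval above 1, was Zc3h12b (16 and 7 reads), with a POH1-Flag MYC peak 266 bp away. So were sites near Cers6, a ceramide synthase gene (20 and 9), and Gal3st2b (28 and 13).

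The strongest POH1-Flag-list-only site lay inside Etv4, an ETS transcription factor gene (chr11:101783544-101784258). It had 33 Flag and 16 MYC reads, a ratio of 1.80 (0.96 to 3.51), and the authors' −log10 q was 24.9. Its summit was 1.33 kb from a gene end, and a vector MYC peak lay 344 bp away, so the call of one list only there turns on a short gap. Egfem1 had 26 Flag and 10 MYC reads (chr3:29327255-29327637, ratio 2.27, 1.06 to 5.28), with the nearest vector MYC peak 317 kb away. Grxcr1, a gene of inner ear hair bundles, had 24 and 6 (chr5:68137488-68137903, ratio 3.50, 1.39 to 10.5), the largest ratio of any member.

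The other strong POH1-Flag-list-only sites inside genes were in Nol4l (24 Flag and 13 MYC reads), Thsd7b (29 and 16) and Trpm3, a cation channel gene (19 and 15), and the intervals of these 3 ratios included 1. Outside genes, a site 107 kb from Mecom, a zinc finger transcription factor gene, had 28 and 9 reads (chr3:29843604-29844017, ratio 2.72, 1.25 to 6.55). A site 249 kb from Nfib, a nuclear factor I gene, had 29 and 10 (chr4:82041438-82041837, ratio 2.53, 1.20 to 5.83). One 50.5 kb from Sh3rf3 had 22 and 7 (ratio 2.75). Sites 543 kb from Lcorl (24 and 10) and 691 kb from Fat4, an atypical cadherin gene (22 and 14), had intervals that included 1. At such distances the nearest gene is an address and not a target.

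The interval lay below 1 at 3 POH1-Flag-list-only sites. One was in Otub1, a deubiquitinase gene, with 11 Flag and 23 MYC reads (chr19:7202079-7202342, ratio 0.42, 0.18 to 0.89). A site 1.01 kb from Jpt1 had 9 and 20 (0.39, 0.16 to 0.90), and one near Rras2, a Ras-related GTPase gene, had 16 and 28 (0.50, 0.25 to 0.96). Near Mcfd2, a cargo receptor subunit gene, 12 and 22 reads gave an interval that just included 1 (0.48, 0.21 to 1.01). The vector MYC peak was 42 bp from this Flag peak, the smallest such gap in this set, and it overlapped the POH1-Flag MYC peak met. The MYC summit was 860 bp from the Flag summit and outside the Flag peak of 510 bp, so this ratio compares different places.

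The 9 members at gene ends were named in full. Vector-list-only sites were at Them7 (786 bp from the end, 23 Flag and 14 MYC reads), Lypd4 (905 bp, 15 and 24), Sfi1 and Speer4c. POH1-Flag-list-only sites were at Adgrf2, an adhesion receptor gene (401 bp, 22 and 14), Luzp1, a cytoskeletal protein gene (477 bp, 25 and 21), Vmn2r4, a pheromone receptor gene (866 bp, 14 and 10), Uros, of heme synthesis (358 bp, 16 and 13), and Ppa2, a mitochondrial pyrophosphatase gene (460 bp, 13 and 7). None of these 9 had a ratio interval that left out 1.

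Of 21631 protein-coding genes, 103 carried a vector-list-only site inside the gene or within 1 kb of an end (0.476%), and 161 carried a POH1-Flag-list-only site (0.744%). Within 50 kb these were 304 genes (1.41%) and 411 genes (1.9%). The carrying genes were long, with median lengths of 194 kb (133 to 268) and 149 kb (123 to 198) against 17.3 kb for all coding genes. Long genes hold most gene sequence: 50% of all coding gene bases lie in genes of at least 139 kb. Both medians had that length inside their intervals, and the genes of Flag peaks in both lists (131 kb) or in neither (183 kb) were also long.

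Both kinds of site fell in 9 genes: Sntg1, Ccdc150, Sfi1, Cenpo, Tmem267, Olfr1223, Maml2, Unc13c and Zc3h12b. Maml2 is a Notch coactivator gene and Unc13c a synaptic vesicle priming gene. Examples of genes with a pair of POH1-Flag-list-only sites were Gata4, a zinc finger transcription factor gene (20 and 17 Flag reads against 19 and 16 MYC reads), Psen2, a gamma-secretase subunit gene (22 and 15 against 18 and 19), Adgrb3 (22 and 18 against 15 and 11) and Actr3b, an actin nucleation gene (19 and 18 against 16 and 11). A vector MYC peak lay 1.75 kb and 106 bp from the Actr3b sites. Pairs were also in Cspp1, Dnah7c, Dpp10, Thsd7b, Rps6kc1, Sfi1, Tenm2, Etl4, Sptlc3, Naaladl2 and Egfem1. Both Cep112 sites (20 and 18 Flag reads) met the same MYC peak of 12 reads.

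The gene lists of MYC and proteasome biology were nearly free of members. None of 18 MYC network genes and none of 42 proteasome genes had a member of either set inside, at an end or within 50 kb, and none of 30 core MYC target genes had one inside or at an end. Within 50 kb of a core target lay 1 POH1-Flag-list-only site, at Nme1, a nucleoside diphosphate kinase gene. Of 39 deubiquitinase genes Otub1 alone carried a site. At background rates of 0.476% and 0.744% per gene inside or at an end, and 1.41% and 1.9% within 50 kb, lists of this size hold few genes. These small counts are not results about the lists.

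Of 21 pancreatic cancer driver genes none carried a member, and Cdkn2a, the p16 and p19 tumor suppressor gene, had a POH1-Flag-list-only site 9.58 kb away with 12 Flag and 12 MYC reads. Of 40 adhesion and cytoskeleton genes none carried a member, and Tpm1, a tropomyosin gene, had a vector-list-only site 8.54 kb away with 19 Flag and 20 MYC reads. Of 23 AP-1, YAP and TEAD genes Amotl1, an angiomotin relative, carried a vector-list-only site (12 and 10 reads). Of 24 epithelial and mesenchymal genes Prrx1, a mesenchymal homeobox gene, did so too (14 and 9 reads). Of all coding genes 0.476% carried a vector-list-only and 0.744% a POH1-Flag-list-only site, and 1.41% and 1.9% had one within 50 kb. The small counts in these lists are not results about them.

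Long neuronal genes held more. Of 31, vector-list-only sites fell in Lrp1b and Dab1, the reelin pathway adaptor (15 Flag and 8 MYC reads), and POH1-Flag-list-only sites in Cntnap2 (11 and 7), Dlg2, a synaptic scaffold (14 and 12), Dmd, the dystrophin gene (10 and 7), and Dpp10. That is 6.45% and 12.9% of the list against 0.476% and 0.744% of all coding genes. The list is made up of long genes, and a longer gene offers more sequence to hold a site. It was also written with earlier results of these data known, and no share for genes of like length is given. The higher shares are therefore not a result about neuronal genes.

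Members of one set seldom lay close together. Another vector-list-only site was within 100 kb of 22 sites (6.79%, 4.53 to 10.1), and another POH1-Flag-list-only site of 46 (10.5%, 7.98 to 13.8), against 20.6% of Flag peaks in both lists and 14.4% in neither, sets that have more sites. The nearest other member belonged to the same set for 49.4% (44.0 to 54.8) of vector-list-only sites, which were 42.6% of all members, and for 63.4% (58.8 to 67.8) of POH1-Flag-list-only sites, which were 57.4%.

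The list that a member did not meet was usually far away. The nearest POH1-Flag MYC peak was a median of 55.7 kb (41.8 to 69.8) from vector-list-only sites, and 64.9 kb (56.9 to 72.1) from Flag peaks in neither list. The nearest vector MYC peak was a median of 111.8 kb (92.1 to 148) from POH1-Flag-list-only sites, and 124 kb (110 to 135) from Flag peaks in neither list. The shorter distances to the POH1-Flag list go with its larger number of peaks, and in each comparison the intervals of the one-list set and of the neither set overlapped.

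**Figure D4:**
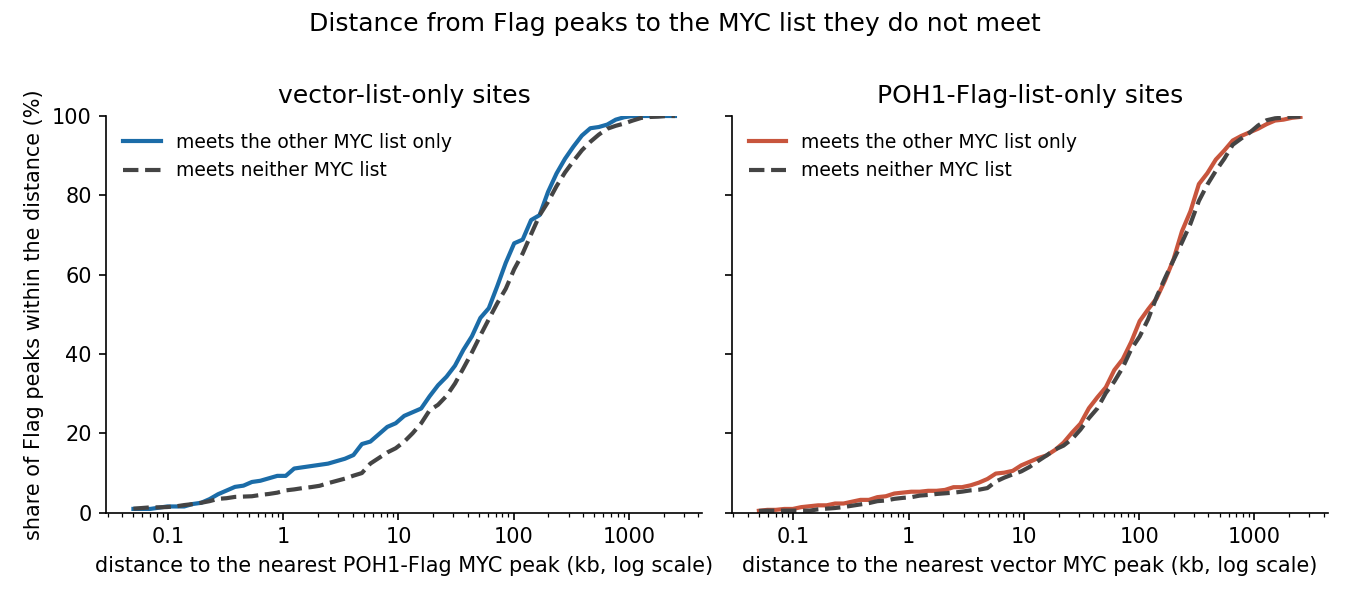
Share of Flag peaks (%, vertical axis) with a peak of the MYC list not met within a given distance (kb, horizontal axis, log scale). The left panel shows the distance to the POH1-Flag list for vector-list-only sites and the right panel the distance to the vector list for POH1-Flag-list-only sites, each beside Flag peaks meeting neither list (dashed). The solid curves run close to the dashed ones, with 67.0% and 46.9% of members within 100 kb, and the left solid curve is higher at short distances, with 9.26% against 5.60% at 1 kb.

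A minority were near misses. A peak of the list not met lay within 1 kb of 30 vector-list-only sites (9.26%, 6.56 to 12.9) and 23 POH1-Flag-list-only sites (5.26%, 3.53 to 7.77), a difference of 4.0 points (0.312 to 8.04). With a −log10 q of at least 5 in all lists the shares were 2.5% and 4.91%. That difference of -2.41 points had an interval, -7.14 to 2.05, that included 0. The order turned around with the POH1-Flag list shortened to the vector list's length, 2.23% and 6.42%, a difference of -4.20 points (-10.5 to -0.603). Shortening removes POH1-Flag peaks near which a vector-list-only site could lie, so that turn is in part built in. The first share is measured to the longer list. Flag peaks meeting neither list had the first order too, with 5.60% within 1 kb of the POH1-Flag list and 3.87% of the vector list. The part of list length was not tested. The smallest overlap that made a member was 6 bp in the vector-list-only and 3 bp in the POH1-Flag-list-only set, and the smallest gap to a list not met was 34 and 42 bp. In 62 and 91 members the MYC peak covered under 50% of the Flag peak. At 6 vector-list-only sites (1.85%) and 5 POH1-Flag-list-only sites (1.14%) the MYC peak met itself overlapped a peak of the other MYC list, outside the Flag peak.

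A missing MYC call is not a MYC level of 0. At the genome-wide background a summit needed 6 reads to enter the vector list and 5 to enter the POH1-Flag list, and at the members' own backgrounds the median need was 7 in each. The MYC pileups actually met, scaled to the other library, had medians of 10.2 reads (POH1-Flag-list-only) and 10.8 reads (vector-list-only), and at that scaled level 434 of 437 POH1-Flag-list-only sites (99.3%) and 324 of 324 vector-list-only sites would have passed in the other library. This count is close to fixed by the rule, since each of these MYC peaks had passed in its own list. Reads of a library at sites where it has no peak were not analysed here, so how far MYC differed between vector and POH1-Flag cells at the members cannot be given.

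The sizes of the sets depended on where the lists end. With the POH1-Flag MYC list shortened by −log10 q to as many peaks as the vector list, 629 Flag peaks met the vector list only and 109 the POH1-Flag list only, the opposite order to 324 and 437. Shortening removes the weakest POH1-Flag MYC peaks, among which the members' peaks rank low, so this swing is in part built in. Raising the −log10 q minimum to 5 in every list left 160 and 163 sites.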

How the data were processed

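Peak lists of 3 CUT&Tag libraries were used, 1 per group. Tools named in the submitters' processing notes, without role or parameters, are MACS2 2.2.7.1, BWA 0.7.17-r1188, Trim Galore 0.6.6 and FastQC 0.11.9, and the genome build named is GRCm38/mm10. Whether a control library or blacklist was used, and how duplicates were handled, is not given in these sources. The deposited values of each summit are a fold enrichment (a linear ratio), a −log10 p, a −log10 q and a score of 10 times the −log10 q. They are the authors' own and were used within a list only. The smallest deposited −log10 q was 1.36, 1.30 and 1.30.

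Whole reads at each summit and their local background were solved from the authors' fold and −log10 p, with 100% of peaks whole within 0.01, and checked on simulated data. The genome-wide background (0.946, 0.845 and 0.826 reads) is the smallest local one in each library. Local background came from the library itself, so a peak's reads raise it.

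Peaks were overlapped by at least 1 bp (Python 3.11.15, pandas 2.3.3, scipy 1.17.1), and summits placed by RefSeq genes of GRCm38.p6. The gene table used carried no strand or exons, so either gene end counted. Shares have Wilson, medians order-statistic, and ratios exact conditional Poisson intervals. All 268 entries of the 9 gene lists matched. Members and lists were chosen with earlier results of these data known. Named for each set were the 8 strongest sites by Flag −log10 q in or at a gene, the 4 strongest elsewhere, all at gene ends, the 4 largest and 4 smallest ratios, the 3 genes with most sites, and sites in listed genes, without predicted genes. A site that this rule names is not reported here. Genes with both kinds of site or a pair of sites, and the Cdkn2a, Tpm1 and Nme1 neighbours, were named after their values were seen. A planned search for motifs under the peaks was not run, and no sequence of a member was used here.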

Additional observations from a re-analysis of the deposited data

Results flagged for a closer look

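Outside chromosomes 1 to 19 and X, 25 of 131 Flag peaks also met exactly one MYC list, in sequence that the report does not use. Of these, 7 met the vector list only and 18 the POH1-Flag list only. Unplaced or unlocalized contigs held 19, chromosome Y 5 and the mitochondrial genome 1. Another 82 of the 131 met both lists and 24 met neither.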

How the results depend on the processing

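Over 20 results 102 alternatives were tried. Of these, 65 moved the value by less than its counting interval, or a count by less than 1.5 times, and 37 moved it further. A change of direction within a set was looked for in the log2 ratios only, and 0 of them reversed. The shares, medians and counts had no such check. The chromosome result and its alternatives were added after seeing the data. With a −log10 q of at least 5 in all lists, the vector-list-only and POH1-Flag-list-only sets had 160 and 163 sites, Flag pileups of 17 and 18, and 45.6% and 44.2% on chromosomes 1 to 3, with 2.5% of the former within 1 kb of the list not met and 4.29% of the latter at gene ends and 34.4% inside genes. With equal list lengths they had 629 and 109 sites, 2.23% of the former near the list not met, and 2.75% at gene ends and a Flag pileup of 15 in the latter. With a Flag fold of at least 5 they had 179 and 259 sites, and the latter 3.09% near the list not met and 31.3% on chromosomes 1 to 3. The share near the list not met was 27.2% and 20% with overlap of 50% of the Flag peak, 19.9% and 12.7% with the MYC summit inside it, 2.18% and 2.17% with peaks within 500 bp counted as met, and 23.1% and 12.4% at a distance of 10 kb. Gene-end shares were 6.48% and 6.86% at 5 kb, and 0.309% at 0.5 kb for vector-list-only sites. The log2 ratio was 0.322 and 0.503 unscaled and 0.0586 and 0.115 from folds. Another site lay within 1 Mb of 42% and 37.3%, and background was over 2 times the genome-wide level at 44.4% and 43.9%. Beyond those that only redefine a distance or threshold, the cause was not tested. No paired analysis was possible because each group has 1 library, and for the same reason no replicate could be left out. Pileups of about 10 to 20 reads limit single-site ratios to coarse intervals.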
